A study of Mus musculus with 2 samples.

Results

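The 10 genes examined belong to the tumour necrosis factor (TNF) family. They were read in H3K4me3 ChIP-seq peak lists of mouse bone marrow-derived macrophages, out of 21938 protein-coding genes of GENCODE release M21. They were chosen by gene symbol: 4 receptors (Tnfrsf1a, Tnfrsf1b, Tnfrsf11a and Cd40) and 6 ligands (Tnf, Lta, Ltb, Tnfsf9, Tnfsf14 and Tnfsf13b). All peaks within 10 kb of any annotated transcript start of these genes were taken from 4 deposited lists. H3K4me3, trimethylation of lysine 4 on histone H3, marks active and poised promoters. The series held 1 group, unstimulated macrophages grown from the bone marrow of C57BL/6J mice, with 2 biological replicates and no other genotype, treatment or time. Both replicates carry the same donor entry and began with 10 ng of DNA, and the labels do not say whether they came from separate animals, so the spread between them may be technical.

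TNF-family ligands act mostly as trimers and signal through cell-surface receptors that recruit adaptor proteins of the TRADD, FADD and TRAF kinds, which lead to NF-κB activation or cell death. Tnf is a primary response gene that macrophages switch on quickly after contact with microbial products. It lies beside Lta and Ltb, the genes of the lymphotoxins, which are best known from lymphocytes. H3K4me3 is a mark on chromatin, so the peaks give no RNA level.

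Replicate 1 had 20031 peaks and replicate 2 had 16376 peaks. The authors also made a pooled list of 18898 peaks from both libraries together and a replicated list of 16957 peaks. The fold printed for a peak is the authors' own value, and its scale differed between lists, with a median of 21.7 in replicate 1 and 10.7 in replicate 2. Values were therefore read within a list, as a percentile of fold among all its peaks. The cell label was checked against marker genes: a peak within 1 kb of a start was present in both replicates at 8 of 8 macrophage markers, including Csf1r and Spi1, and at 0 of 7 T cell, 0 of 8 B cell and 0 of 8 neutrophil markers. Of 8 dendritic cell markers, Bst2 had such a peak. Over all protein-coding genes the share with such a peak in both replicates was 49.5%. The marker lists were chosen with earlier results of these data known, so they give no independent check of the label. The B cell marker Cd79b and the dendritic cell marker Zbtb46 had a weak peak each in replicate 1 and none in replicate 2 (fold 4.18 for Cd79b and 3.74 for Zbtb46).

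The promoter sequences of the 3 genes of the Lta-Tnf-Ltb locus are printed because neighbouring genes of one family, within 10913 bp of chromosome 17, differed in the mark. They run 5′ to 3′ on the strand of the gene, from 250 bases before to 50 bases after the start that RefSeq gives on GRCm38.p6, which is the mm10 build of the peak lists. Capitals mark matches to the TATA box (TATAAA), the core of the site bound by the macrophage factor PU.1 (GAGGAA), the AP-1 site (TGANTCA) or the NF-κB consensus of 10 letters, each searched on both strands, and matches that overlap form a single run of capitals.
Tnf, chr17:35201958-35202257, minus strand: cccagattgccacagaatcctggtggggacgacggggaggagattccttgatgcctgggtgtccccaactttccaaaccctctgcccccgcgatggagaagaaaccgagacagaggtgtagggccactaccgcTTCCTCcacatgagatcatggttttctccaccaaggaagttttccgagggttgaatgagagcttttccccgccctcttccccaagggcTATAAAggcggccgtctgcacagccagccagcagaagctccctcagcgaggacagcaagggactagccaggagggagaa
Lta, chr17:35205302-35205601, minus strand: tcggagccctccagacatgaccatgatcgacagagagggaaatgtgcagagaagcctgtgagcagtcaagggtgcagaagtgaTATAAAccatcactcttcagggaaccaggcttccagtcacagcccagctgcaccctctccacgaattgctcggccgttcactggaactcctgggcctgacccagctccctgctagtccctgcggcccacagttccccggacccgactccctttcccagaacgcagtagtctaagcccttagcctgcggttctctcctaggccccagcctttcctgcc
Ltb, chr17:35194257-35194556, plus strand: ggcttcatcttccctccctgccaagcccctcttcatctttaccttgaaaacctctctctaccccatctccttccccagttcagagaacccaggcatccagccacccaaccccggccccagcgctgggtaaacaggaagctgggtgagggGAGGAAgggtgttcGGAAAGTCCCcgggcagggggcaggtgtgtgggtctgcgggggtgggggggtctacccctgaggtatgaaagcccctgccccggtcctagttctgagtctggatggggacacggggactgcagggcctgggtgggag

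All 300 bases of the Tnf promoter lay inside a peak of each of the 4 lists, and 0 bases of the Lta and Ltb promoters did. The Tnf sequence held a TATA box at positions -29 to -24, counted from the start as 0, and a PU.1 core match on the opposite strand at -117 to -112. The Lta sequence held its TATA-box match farther away, at -167 to -162. Ltb had no TATA-box match in this window, a PU.1 core match at -101 to -96 and an NF-κB match on the opposite strand at -87 to -78. Of 32851 promoters in the same RefSeq table, 13.6% held the TATA box, 28.3% the PU.1 core, 7.81% the AP-1 site and 8.46% the NF-κB consensus. These matches are letters in the sequence and carry no measurement of binding.

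Of the 10 genes, 9 had a peak within 10 kb of a start in both replicates, compared with 54.4% of all protein-coding genes. The exception was Tnfsf13b, whose nearest peak in replicate 2 lay 27589 bp away. By list, the count was 10 in replicate 1 (all coding genes 58.9%), 9 in replicate 2 (54.4%), 10 in the pooled list (57.9%) and 10 in the replicated list (56.2%). These counts rest on 14 distinct peaks in replicate 1, 11 in replicate 2, 15 in the pooled list and 12 in the replicated list, because Tnf, Lta and Ltb are close enough to share most of theirs. The farthest peak that still counted lay 9526 bp from Lta in replicate 1, and the nearest peak that did not count lay 12021 bp from Cd40 in the same library.

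With a window of 1 kb around a start, called a promoter peak here, 7 of the 10 genes were marked in both replicates, against 49.5% of all coding genes. Replicate 1 marked 9 (all coding genes 53.5%), replicate 2 marked 7 (49.5%), the pooled list 9 (52.7%) and the replicated list 9 (51.3%). Lta was the gene without a promoter peak in any list. Ltb and Tnfsf13b had one in replicate 1 and not in replicate 2. Of all 21938 coding genes, 878 had one in replicate 1 alone and 1 in replicate 2 alone. Of the 10870 coding genes marked in replicate 2, 10869 were marked in both, so a call in both replicates was nearly the same as a call in replicate 2. The members were chosen with earlier results of these data known, and no test was made on these counts.

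Tnf (ENSMUSG00000024401) lies on the minus strand of chromosome 17 from 35199381 to 35202007. Its peak was the strongest of its locus in every list. In replicate 1 it ran from 35199490 to 35202579 (3090 bp, fold 49.8, percentile 91.4), and in replicate 2 from 35199756 to 35202371 (2616 bp, fold 23.2, percentile 95.9). The mean width was 2853 ± 335 bp and the mean percentile 93.6 ± 3.21 (SD, n = 2). The peak covered 95.9% of the gene body in replicate 1 and 85.7% in replicate 2, with 705 bases of coding sequence inside it in both, and reached 572 and 364 bp upstream of the start. Its summit, the position of highest signal, lay 249 bp downstream of the start in replicate 1 and 257 bp in replicate 2. The mark thus lay mostly over the transcribed part of Tnf, a short gene of 2627 bp.

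Lta encodes lymphotoxin alpha, which is secreted as a trimer that binds the same receptors as TNF. The gene (ENSMUSG00000024402) lies on the minus strand from 35203165 to 35205351. Its start, 3344 bp upstream of that of Tnf, was 2772 bp from the nearest peak in replicate 1 and 2980 bp in replicate 2, and in both cases that was the Tnf peak. Peaks covered 0% of the Lta gene body in all 4 lists. The gap around Lta in replicate 1 was 7335 bp long. At its far end stood an intergenic peak of 575 bp (35209915 to 35210489) with a fold of 5.79 and a percentile of 15.9, which overlapped no annotated gene and lay 4564 bp upstream of the Lta start and 7908 bp upstream of the Tnf start. The pooled list held this peak with a fold of 3.39, and replicate 2 and the replicated list did not. The 150 bases around its summit in replicate 1 are printed as the only stretch of the locus where a peak lay away from any gene. They are on the plus strand, with capitals as above, and hold an AP-1 and a PU.1 core match. No background share is given for 150 bases around a summit. In replicate 1 such stretches at the peak over Lst1 and at a peak over Ltb (fold 8.22) also held a PU.1 core match. This match was therefore not particular to the intergenic peak. The stretch at the Tnf summit held an NF-κB match that began 10 bp from the summit, and that Ltb stretch held an NF-κB match too.
Intergenic peak upstream of Lta, chr17:35210146-35210295, plus strand: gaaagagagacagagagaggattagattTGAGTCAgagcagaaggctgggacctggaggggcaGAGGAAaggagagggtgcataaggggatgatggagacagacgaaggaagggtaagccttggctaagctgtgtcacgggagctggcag

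Ltb encodes lymphotoxin beta, a membrane protein that anchors lymphotoxin alpha at the cell surface in a complex that binds the lymphotoxin beta receptor. The gene (ENSMUSG00000024399) lies on the plus strand from 35194439 to 35196320. It carried weak peaks over its 3′ part and none over its starts. In replicate 1 a peak of 453 bp with a fold of 8.22 (percentile 25.4) began 747 bp from the nearest start, and a peak of 607 bp with a fold of 13.8 (percentile 37.8) began 1288 bp from it. In replicate 2 the position of the second of these alone had a peak, 400 bp wide with a fold of 4.05 (percentile 9.58), 1346 bp from the nearest start. The summits of that peak were at 35196157 in replicate 1 and 35196159 in replicate 2, in the untranslated part that follows the coding sequence. Within replicate 1 the stronger Ltb peak had 27.8% of the fold of the Tnf peak, and in replicate 2 the Ltb peak had 17.5%. The start of the microRNA gene Mir6973a also lies within 1 kb of these peaks, so they cannot be assigned to Ltb alone. A second microRNA gene of the locus, Mir6974, starts inside Lta and was 1978 bp from a peak in replicate 1 and 2186 bp in replicate 2. In replicate 1 the closer peak fell inside the 1 kb window and in replicate 2 the nearest one fell outside it, so the replicates differed in the Ltb promoter call.

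On the far side of Ltb stood the peak of Lst1, a gene of leukocytes. It spanned 3278 bp in replicate 1 (fold 29.1, percentile 61.0) and 2960 bp in replicate 2 (fold 12.3, percentile 57.3), and covered 86.8% and 85.1% of the Lst1 gene body. From 10 kb before the Ltb start to 10 kb after the Lta start, 30913 bp in all, peaks covered 8003 bp (25.9%) in replicate 1 and 5976 bp (19.3%) in replicate 2, a mean of 6989.5 ± 1433 bp (SD, n = 2). The wide peaks of the locus thus lay over Tnf and Lst1, and the starts of both lymphotoxin genes lay outside any peak. The map of the locus shows these positions.

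**Figure D1:**
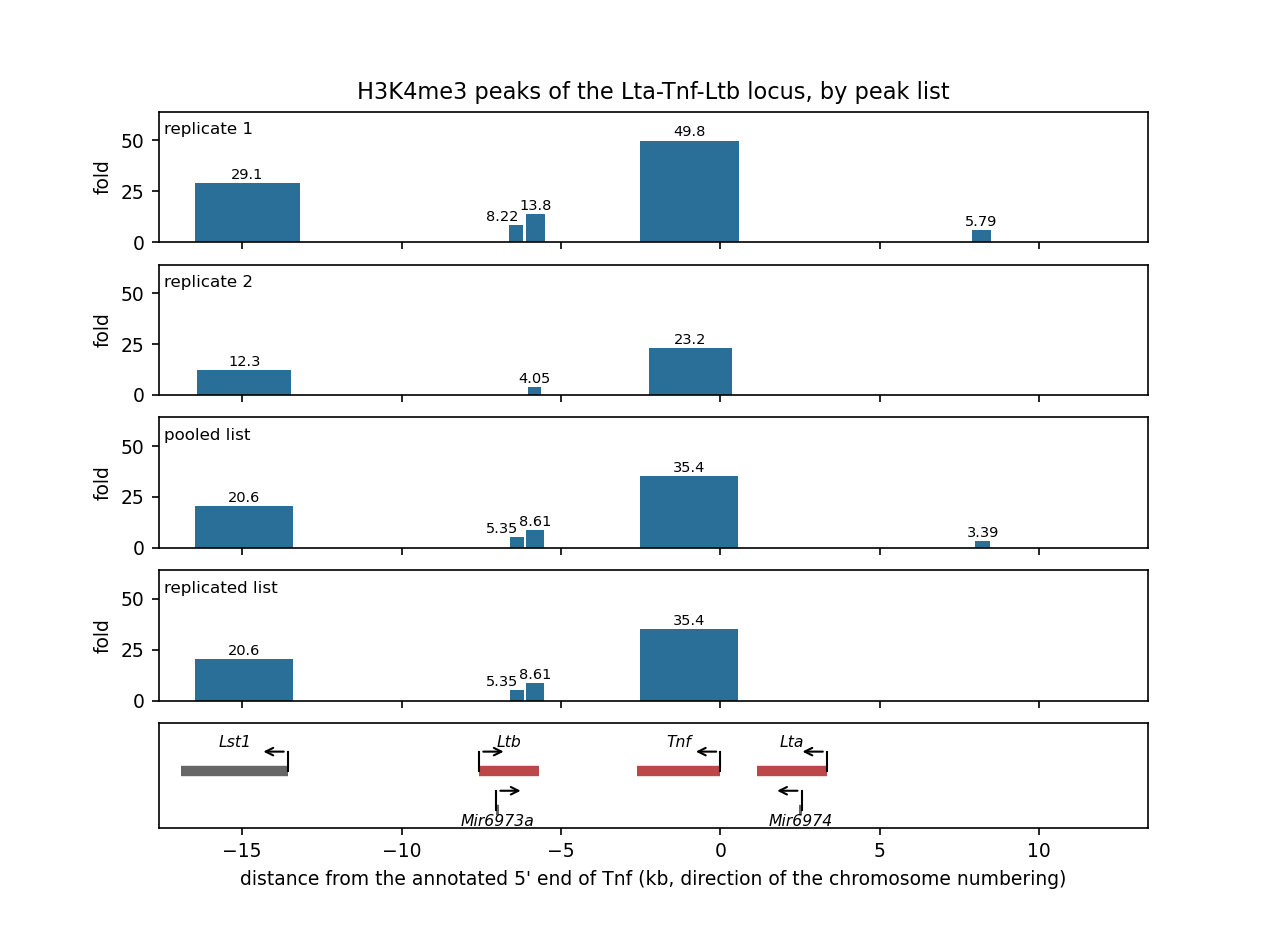
Peaks of each list across the locus; the x axis is the distance from the Tnf 5′ end in kb, bar width is the extent of a peak and bar height the authors' fold, which differs in scale between lists. Genes are drawn below with arrows at their starts. The tallest bar lies over Tnf in each list, 49.8 in replicate 1 and 23.2 in replicate 2, with no bar over Lta.

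Of the receptor genes 4 of 4 were marked in both replicates and of the ligand genes 3 of 6 (50.0%), against 49.5% of all coding genes, so the share of ligands was near the background. By replicate, the receptors were 4 of 4 in each, and the ligands 5 of 6 in replicate 1 and 3 of 6 in replicate 2, against 53.5% and 49.5% of all coding genes. The receptor share exceeded the ligand share by 16.7 percentage points in replicate 1 and 50.0 in replicate 2 (SD 23.6, n = 2). Without replicate 2, and in the pooled and replicated lists, the difference was 16.7 points, because Ltb and Tnfsf13b then counted as marked. With 4 and 6 genes chosen with results known, no test of this difference was made.

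Tnfrsf1a encodes TNF receptor 1, the receptor with a death domain that most cells carry. The gene (ENSMUSG00000030341) lies on the plus strand of chromosome 6 from 125349362 to 125362484. Its peak measured 3259 bp in replicate 1 (fold 59.4, percentile 98.6) and 2815 bp in replicate 2 (fold 24.4, percentile 97.5), a mean percentile of 98.1 ± 0.827 (SD, n = 2). It lay over the first annotated start (125349072 to 125352330 in replicate 1), with 2482 of its bases in the intron sequence that follows. In replicate 1 a second peak, 2597 bp wide and with a fold of 4.11 (percentile 6.15), followed after a gap of 343 bp and lay wholly within introns. It was also in the pooled list, with a fold of 2.92, and not in replicate 2 or the replicated list.

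Tnfrsf1b encodes TNF receptor 2, found mainly on blood and endothelial cells. The gene (ENSMUSG00000028599) lies on the minus strand of chromosome 4 from 145213463 to 145246870. Its peak ran from 145244785 to 145247205 in replicate 1 (2421 bp, fold 54.6, percentile 96.0) and from 145245100 to 145246883 in replicate 2 (1784 bp, fold 25.3, percentile 98.3). The mean percentile was 97.1 ± 1.64 (SD, n = 2). No other peak lay within 10 kb in any list, and the nearest beyond that was 51770 bp away in replicate 1.

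Tnfrsf11a encodes RANK, the receptor through which RANK ligand turns macrophage precursors into osteoclasts. The gene (ENSMUSG00000026321) lies on the plus strand of chromosome 1 from 105780718 to 105847981. Its peak measured 2684 bp in replicate 1 (fold 54.9, percentile 96.2) and 1732 bp in replicate 2 (fold 24.5, percentile 97.6), a mean percentile of 96.9 ± 0.975 (SD, n = 2). In replicate 1 it spanned the 5′ end, and in replicate 2 it began 34 bp from the nearest annotated start, on the gene side. The pooled and replicated lists broke it into a peak of 432 bp with a fold of 6.77 and a peak of 2101 bp with a fold of 39.9. The gap of 111 bp between them (105780621 to 105780731) held the 5′ end of the gene. Replicate 1 and the pooled list also had an intronic peak 5767 bp from a start, with folds of 4.59 and 2.75.

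Cd40, the receptor of the T cell ligand CD40L, was marked less strongly than the other receptor genes. The gene (ENSMUSG00000017652) lies on the plus strand of chromosome 2 from 165055627 to 165072948. Its peak measured 2028 bp in replicate 1 (fold 26.7, percentile 57.3) and 1532 bp in replicate 2 (fold 7.83, percentile 35.3), a mean percentile of 46.3 ± 15.5 (SD, n = 2). The 2 percentiles of Cd40 lay below all 6 percentiles of Tnfrsf1a, Tnfrsf1b and Tnfrsf11a. Its fold in replicate 1 was 3.41 times that in replicate 2, against a median of 2.56 over the 10869 coding genes with a promoter peak in both.

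Among the ligands beyond the locus, Tnfsf9 had the strongest peak. It encodes the ligand of the costimulatory receptor CD137. The gene (ENSMUSG00000035678) lies on the plus strand of chromosome 17 from 57105325 to 57107757. Replicate 1 had a single peak from 57104399 to 57107597 (3199 bp, fold 48.2, percentile 89.4) that covered 93.4% of the gene body. In replicate 2 the same stretch was broken into peaks of 448, 1682 and 423 bp with folds of 5.48, 17.6 and 3.0. The widest of these had a percentile of 80.9. Ranked instead among the strongest promoter peaks of coding genes in each list, Tnfsf9 lay at percentiles of 77.9 in replicate 1 and 66.7 in replicate 2. The start of the long noncoding RNA gene Gm11110, on the other strand, lies within the peak, so the signal there cannot be assigned to Tnfsf9 alone.

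The peaks of Tnfsf14 and Tnfsf13b were weak where they were present. Tnfsf14 encodes LIGHT, which binds the receptors HVEM and lymphotoxin beta receptor. The gene (ENSMUSG00000005824) lies on the minus strand of chromosome 17 from 57189492 to 57194177. Its peak measured 709 bp in replicate 1 (fold 6.73, percentile 19.8) and 464 bp in replicate 2 (fold 3.65, percentile 6.2), a mean percentile of 13 ± 9.64 (SD, n = 2). Both peaks lay almost wholly on the gene side of the start, reaching 701 and 539 bp into the gene. When each replicate's list was limited to its 15000 peaks of top −log10 p, this gene was no longer marked in both. Tnfsf13b encodes BAFF, a survival factor for B cells made by myeloid cells. The gene (ENSMUSG00000031497) lies on the plus strand of chromosome 8 from 10006467 to 10039072. It had a peak of 989 bp in replicate 1 (10006610 to 10007598, fold 5.42, percentile 14.0) and none in replicate 2. The pooled and replicated lists held it with a fold of 3.93.

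**Figure D2:**
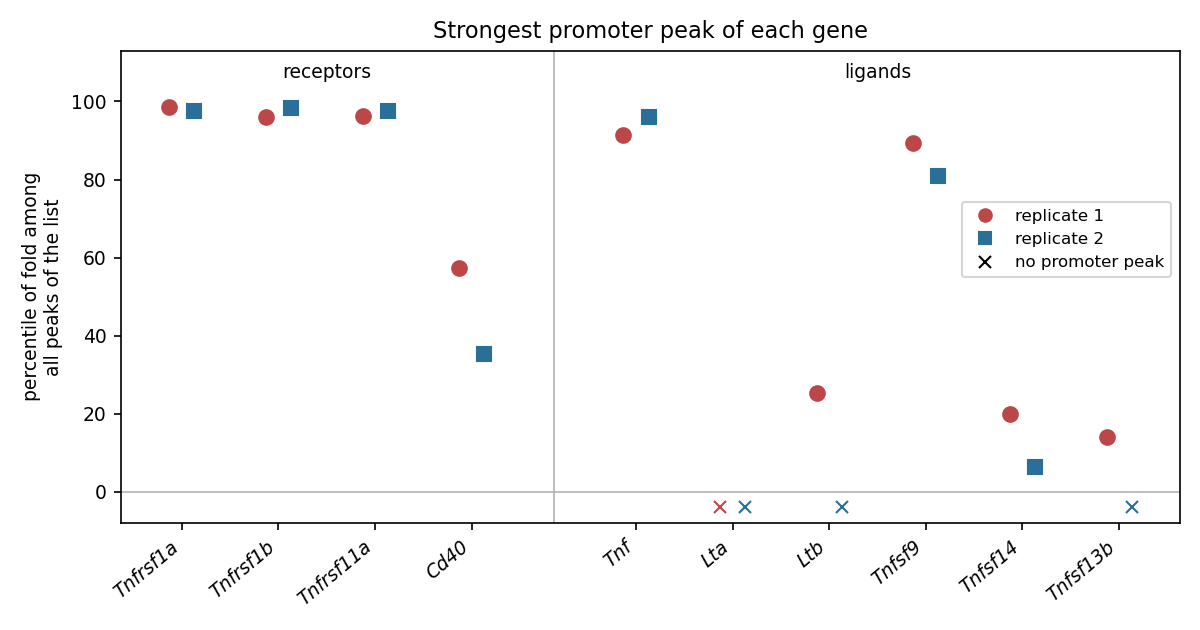
Percentile of fold, among all peaks of the list, of the strongest promoter peak of each gene (y axis), for replicate 1 (circles) and replicate 2 (squares); crosses mark genes with no promoter peak. Tnfrsf1a, Tnfrsf1b, Tnfrsf11a and Tnf lie between 91.4 and 98.6, and Tnfsf14, Tnfsf13b and Ltb at or below 25.4.

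By mean percentile the 7 genes marked in both replicates came in the order Tnfrsf1a (98.1), Tnfrsf1b (97.1), Tnfrsf11a (96.9), Tnf (93.6), Tnfsf9 (85.2), Cd40 (46.3) and Tnfsf14 (13). The values of Tnfrsf1a, Tnfrsf1b and Tnfrsf11a overlapped between the replicates and were not distinguishable by their spread. Tnf lay below these 3 receptor genes in each list. Its value was 91.4 against their lowest of 96.0 in replicate 1, and 95.9 against 97.5 in replicate 2. Tnf and Tnfsf9 did not overlap, with a lowest value of 91.4 for Tnf and a highest of 89.4 for Tnfsf9. Nor did Tnfsf9 and Cd40, or Cd40 and Tnfsf14, where the lowest value of Cd40 was 35.3 and the highest of Tnfsf14 19.8. With 2 replicates these orders are descriptions. The median over the 7 genes was 93.6, and over all 10869 coding genes marked in both replicates it was 72.7. Of the 7 genes 4 (57.1%) had a mean percentile above 90, and of all marked coding genes 19.7%. These percentiles are among all peaks of a list. Among the strongest promoter peaks of coding genes, Tnfrsf1a, Tnfrsf1b and Tnfrsf11a lay between 91.1 and 96.8. Tnf lay there at 81.9 in replicate 1 and 92.1 in replicate 2, Cd40 at 28.4 and 14.9, and Tnfsf14 at 4.95 and 1.89.

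Width did not follow fold in the same order. The mean width was 3037 ± 314 bp at Tnfrsf1a, 2853 ± 335 bp at Tnf, 2440 ± 1073 bp at Tnfsf9, 2208 ± 673 bp at Tnfrsf11a, 2102 ± 450 bp at Tnfrsf1b, 1780 ± 351 bp at Cd40 and 586 ± 173 bp at Tnfsf14 (SD, n = 2 for each). Neighbours from Tnfrsf1a to Cd40 lay within the spread of the replicates, but this spread takes in a shift in width between the lists. Read within each list, Tnfrsf1a was the widest of the 7 in both (3259 and 2815 bp). Tnf was wider than Tnfrsf11a, Tnfrsf1b and Cd40 in both (3090 and 2616 bp). Cd40 was wider than Tnfsf14 alone in both (2028 and 1532 bp). The order of Tnfsf9, Tnfrsf11a and Tnfrsf1b differed between the lists. All 7 were wider in replicate 1, by a ratio of 1.16 to 1.90, the highest at Tnfsf9, compared with a median ratio of 1.25 over all coding genes marked in both. Where peaks within 1000 bp were joined, Tnfsf9 spanned 3199 bp in replicate 1 and 2917 bp in replicate 2, a mean of 3058 ± 199 bp (SD, n = 2). At Tnfrsf1a joining widened the spread, because it took in the weak second peak of replicate 1. The joined span there was 6199 bp in replicate 1 and 2815 bp in replicate 2, a mean of 4507 ± 2393 bp (SD, n = 2). Tnfrsf1b had one of the highest percentiles of fold and a peak of middling width among the 7 genes. Among all peaks of the list, the width of its peak had a percentile of 90.4 in replicate 1 and 87.1 in replicate 2.

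The summits of all 7 genes lay downstream of the 5′ end, in both replicates, at distances of 243 to 933 bp. Between the replicates they differed by 7 bp at Tnfrsf1b, 8 bp at Tnf, 21 bp at Cd40, 29 bp at Tnfsf9 and at Tnfsf14, 61 bp at Tnfrsf11a and 132 bp at Tnfrsf1a. The longest distance, at Tnfrsf1a, was counted from the first of the 3 annotated starts inside its peak. Summit distances are not given for other coding genes, so a downstream summit is not shown to be particular to these 7. Extension was likewise uneven around the start. In replicate 1 the Tnf peak reached 572 bp upstream and 2517 bp downstream, and the Tnfrsf1a peak 290 bp upstream and 2968 bp downstream. Cd40 was the most even, with 789 bp upstream and 1238 bp downstream in replicate 1 and 666 and 865 bp in replicate 2.

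**Figure D3:**
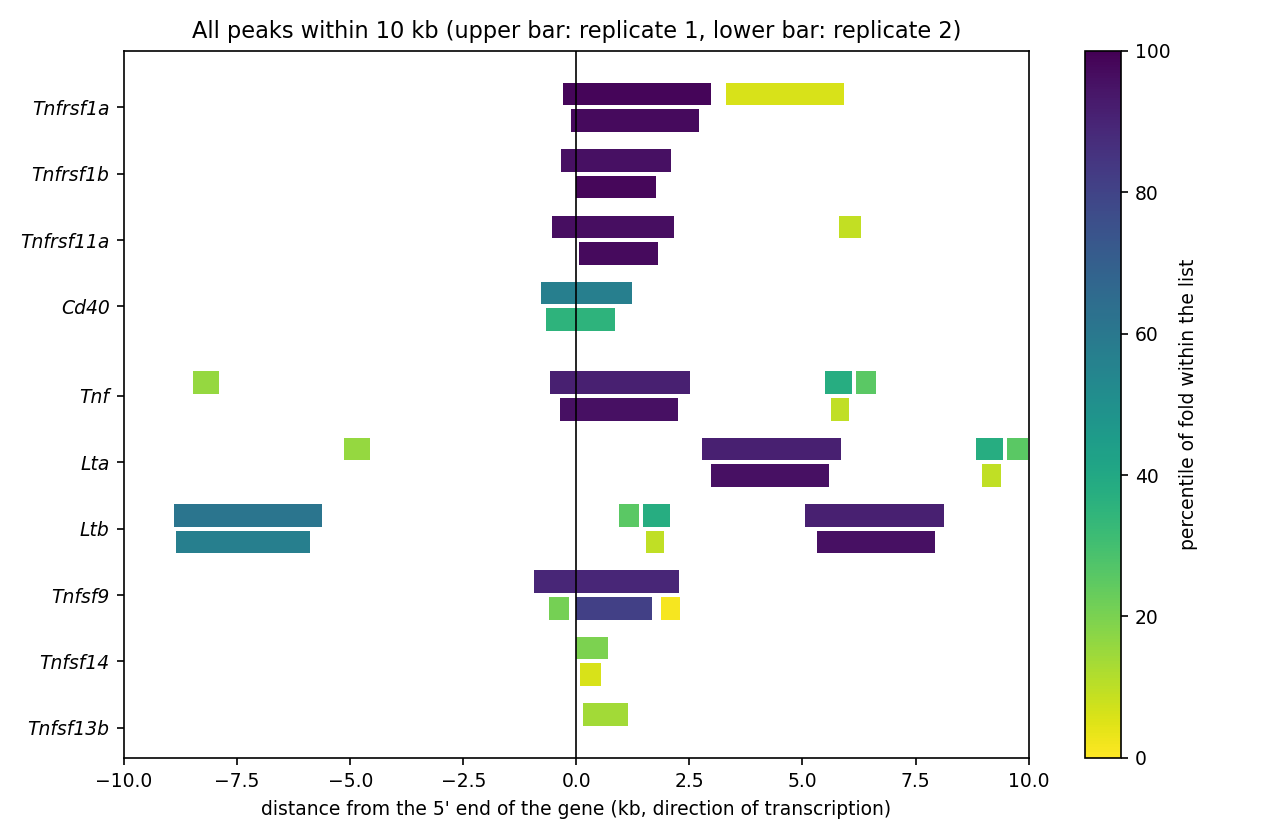
Every peak within 10 kb of each gene, drawn by its distance from the 5′ end in kb in the direction of transcription (x axis) and coloured by its percentile of fold; the upper bar of each gene is replicate 1 and the lower bar replicate 2. Dark bars begin near 0 and run to the right at Tnfrsf1a, Tnfrsf1b, Tnfrsf11a and Tnf, and the dark bars of Lta and Ltb are the Tnf peak seen from their own starts.

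The promoters were mostly poor or middling in CpG dinucleotides. The CpG observed/expected ratio in a window reaching 1000 bp each way from the 5′ end was 0.35 at Tnfrsf1a, 0.43 at Tnfrsf1b, 0.62 at Tnfrsf11a and 0.31 at Cd40. It was 0.26 at Tnf, 0.27 at Lta, 0.28 at Ltb, 0.50 at Tnfsf9, 0.27 at Tnfsf14 and 0.32 at Tnfsf13b. Tnf, Lta and Ltb had percentiles of 31.5, 32.3 and 33.6 among all coding genes, and Ltb fell just outside the 7313 genes of lowest ratio that hold the other two. Among these 7313 genes, to which Tnf, Lta and Tnfsf14 belong, 12.1% were marked in both replicates, with median folds of 31.6 and 11.6, and the Tnf peak had folds of 49.8 and 23.2. Of the 7312 genes of middle ratio 56.0% were marked, and of the 6 of the 10 genes that fell there 4 were, namely Tnfrsf1a, Tnfrsf1b, Cd40 and Tnfsf9, with Ltb and Tnfsf13b not marked in both replicates. Tnfrsf11a was the single one of the 10 among the 7313 of highest ratio, where 80.5% of genes were marked. Its promoter is printed beside that of Tnfsf14, a ligand gene with a low ratio in the 1000 bp window and a weak peak. The pair does not stand for the 10 genes. Tnf, with a ratio of 0.26 against 0.27 at Tnfsf14, had a strong peak. The sequences have the same format as above.
Tnfrsf11a, chr1:105780473-105780772, plus strand: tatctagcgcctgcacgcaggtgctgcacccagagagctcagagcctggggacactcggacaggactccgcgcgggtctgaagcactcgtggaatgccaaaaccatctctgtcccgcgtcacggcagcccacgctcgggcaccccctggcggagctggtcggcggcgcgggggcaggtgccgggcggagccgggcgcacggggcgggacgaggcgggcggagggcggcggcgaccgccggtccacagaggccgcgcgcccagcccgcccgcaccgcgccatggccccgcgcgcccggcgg
Tnfsf14, chr17:57194132-57194431, minus strand: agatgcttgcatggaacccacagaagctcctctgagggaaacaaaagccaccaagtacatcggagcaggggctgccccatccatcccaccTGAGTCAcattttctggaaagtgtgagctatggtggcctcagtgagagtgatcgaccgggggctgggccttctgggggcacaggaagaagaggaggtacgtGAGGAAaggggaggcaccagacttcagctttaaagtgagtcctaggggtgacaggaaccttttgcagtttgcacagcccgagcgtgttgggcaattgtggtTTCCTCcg

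The Tnfrsf11a window held 43 CpG dinucleotides in 300 bases and the Tnfsf14 window 7, which is also the median over the 32851 promoters of the table. None of the 4 motifs was found in the Tnfrsf11a window, and that of Tnfsf14 held an AP-1 match at -160 to -154 and PU.1 core matches on either side of the start. In replicate 1 the Tnfrsf11a peak covered all 300 bases, and in replicate 2, where the peak began farther into the gene, 0 of them. The Tnfsf14 peak covered 53 bases of its window in replicate 1 and 0 in replicate 2. RefSeq promoters were available for 8 of the 10 genes, without Tnfsf9 and Cd40.

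The rest of the family was followed through lists of genes. Of the 24 further TNF receptor family genes, 12 had a promoter peak in both replicates (50.0%) and 12 had none, and of the 12 other ligand genes 4 had one (33.3%) and 8 had none, against 49.5% of all coding genes. The median percentile of the marked genes was 63.0 for these receptors and 30.7 for these ligands, against 72.7 for all marked coding genes, so the share of receptors was near the background and the other values below it. With the 10 genes added, 16 of 28 receptors (57.1%) and 7 of 18 ligands (38.9%) were marked. Tnfrsf13b, which encodes TACI, a receptor of BAFF and APRIL, Ltbr, which encodes the lymphotoxin beta receptor, and Tnfrsf14, which encodes HVEM, were the strongest of the other receptors, with mean percentiles of 79.4, 73.1 and 71.9. All 3 lay below Tnfrsf1a, Tnfrsf1b and Tnfrsf11a in both replicates. The costimulatory receptor gene Cd27, the nerve growth factor receptor gene Ngfr, and Edar and Eda2r, which encode receptors of ectodysplasin, had no promoter peak. Among the other ligands Tnfsf12, which encodes TWEAK, had a mean percentile of 71.5, with the start of the readthrough gene Tnfsfm13 in the same window, Tnfsf10, which encodes TRAIL, 37.5 and Tnfsf8, which encodes CD30 ligand, 23.8. The ligand genes Cd40lg, Cd70, Eda and Fasl had none.

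Read as pairs of a receptor and its ligand, the marking took several forms. Both TNF receptor genes and Tnf carried strong peaks. Ltbr had folds of 39.2 and 15.0 in replicates 1 and 2. Of the genes of its ligands, Tnfsf14 was marked weakly in both replicates, and Lta and Ltb were not marked in both at the 1 kb window. Tnfrsf14, the gene of HVEM, had folds of 41.7 and 13.6, and the gene of its ligand, Tnfsf14, 6.73 and 3.65. Of the receptors of BAFF, Tnfrsf13b had folds of 41.9 and 17 and Tnfrsf13c and Tnfrsf17 had no promoter peak, while Tnfsf13b, the gene of BAFF, had a fold of 5.42 in replicate 1 and no peak in replicate 2. Tnfsf13, the gene of APRIL, the other ligand of TACI, had folds of 8.03 and 4.01. Tnfrsf9, whose window also holds the start of Park7, had folds of 34.2 and 14.6, and the gene of its ligand, Tnfsf9, 48.2 and 17.6. Tnfrsf11a and Cd40 were marked, while the genes of their ligands, Tnfsf11 and Cd40lg, had no peak within 10 kb. Tnfrsf12a, the gene of the TWEAK receptor, had a mean percentile of 62.2 and Tnfsf12 71.5, and Tnfrsf10b, the gene of the TRAIL receptor, 49.7 and Tnfsf10 37.5, so both sides of these pairs were marked. Tnfrsf8, the gene of CD30, had no promoter peak, while Tnfsf8 was marked in both replicates. Fas had a mean percentile of 67.2, while Fasl, the gene of its ligand, had no promoter peak. Other pairs had no promoter peak on either side: Cd27 with Cd70, Tnfrsf4 with Tnfsf4, and Tnfrsf18 with Tnfsf18. The same held for Tnfrsf25 with Tnfsf15, and for Edar and Eda2r with Eda. Tnfrsf8, Tnfrsf9, Tnfrsf10b, Tnfrsf12a, Tnfrsf13c, Tnfrsf17, Tnfsf11 and Tnfsf13 were named as partners after their values were seen. So were Fas, Tnfrsf4, Tnfrsf18, Tnfrsf25, Tnfsf4, Tnfsf15 and Tnfsf18.

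Genes that act just inside the receptors were marked almost throughout. Of 29 genes of receptor-proximal signalling, 28 had a promoter peak in both replicates (96.6%), against 49.5% of all coding genes, with a median percentile of 80.0 against 72.7. Birc2, which encodes a ubiquitin ligase of the receptor complex, had a mean percentile of 95.5, the adaptor gene Tradd 93.8 and Ikbkb, which encodes a kinase of the NF-κB pathway, 92.7. The start of Fbxl8 lies in the Tradd window. Traf1 had no promoter peak, and its nearest peak was 1227 bp from a start in replicate 1.

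Genes that control the making and release of TNF were marked in 11 of 12 cases (91.7%), against 49.5% of all coding genes. The median percentile of the marked genes was 69.6, below the 72.7 of all marked coding genes, with a range of 42.9 to 96.3. Rhbdf2 and Adam17, which encode the iRhom partner and the protease that frees TNF from the membrane, had mean percentiles of 96.3 and 96.1, and Zfp36, which encodes an RNA-binding protein that destabilises Tnf mRNA, 94.1. Noncoding starts lie in the windows of Adam17 and Zfp36. Rhbdf1 had no promoter peak. The lists were chosen with earlier results of these data known and are given as counts with no test.

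**Figure D4:**
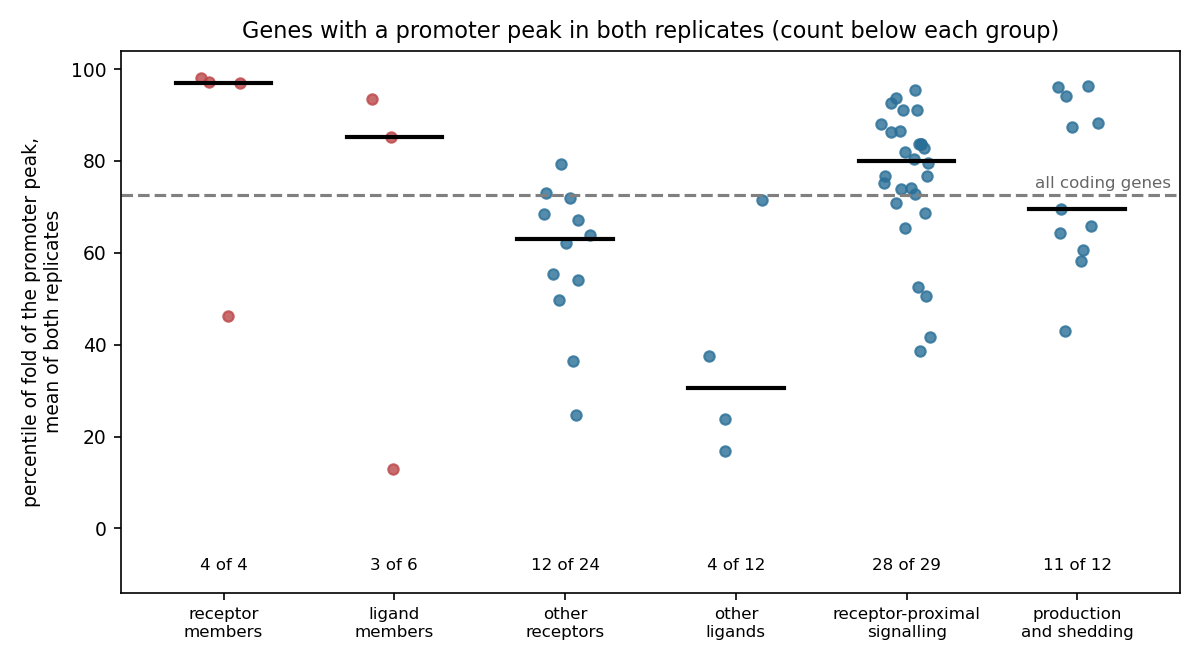
Mean percentile of fold over both replicates of each gene with a promoter peak in both (y axis, points), by group, with the median as a bar and the number marked of all genes below; the dashed line is the median of all marked coding genes, 72.7. The 4 receptor members have a median of 97 with Cd40 far below at 46.3, ligand members have a median of 85.2, other receptors 63.0 and other ligands 30.7.

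The coding genes most like Tnf in fold and joined width over the 2 replicates, 4 values in all, were Lmf2, Ncaph2 and Pdia4, of 10869 genes compared. Lmf2 and Ncaph2 shared the same peak, with folds of 49.9 and 23.5, and Pdia4 had folds of 50.3 and 23.3, against 49.8 and 23.2 at Tnf. Joined widths were 3201 and 2616 bp at Lmf2 and Ncaph2, 3102 and 2751 bp at Pdia4, and 3090 and 2616 bp at Tnf. This is likeness in the size of the peak over 2 libraries and nothing more.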

How the data were processed

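H3K4me3 ChIP-seq of 2 replicates of unstimulated macrophages was analysed from 4 peak lists on mm10. The authors called pseudoreplicated peaks in each replicate by itself and in both together (the pooled list), and a further replicated set from both, per the deposited provenance texts. For every peak the deposited lists hold a fold, which is a ratio, a −log10 p value and a −log10 q value. The sources used here do not give what the fold is relative to, the aligner, the caller or its thresholds. Read counts were not used, so depth is unknown and no interval from depth is given.

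Peaks were compared with transcript starts of GENCODE M21 on 21 chromosomes in Python 3.11.15 (numpy 2.4.6, pandas 2.3.3). On GRCm38.p6, 0 peak ends lay beyond a chromosome. A promoter peak overlapped any start of the gene, extended by 1000 bp each way, by at least 1 bp, and a peak may count for several genes. For likeness, peaks within 1000 bp were joined and z-scored log2 values compared by Euclidean distance. Of 117 listed symbols 116 matched, without Trac. The overlap search was tested on simulated data. The members and lists were chosen with earlier results of these data known. Named were all 10 genes, the genes of the locus, and from each list the 3 marked genes of highest mean percentile and up to 4 unmarked genes in alphabetical order. There is 1 group, so no conditions were compared and no p-value was computed.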

Additional observations from a re-analysis of the deposited data

How the results depend on the processing

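The counts of marked genes over all 10 genes and over each of the 4 lists of family and pathway genes stayed within 1.5 times their main value under the alternatives run for both: the 5′ end only, the pooled and replicated lists, the 15000 peaks of highest −log10 p, each replicate alone, windows of 500 and 2500 bp (for the 10 kb distance of the 10 genes, 5 and 2.5 kb), and a peak counted for the nearest start only. An overlap of at least 200 bp was run for the promoter peaks of the 10 genes alone and left 7 marked. Among the ligands, 5 of 6 in place of 3 were marked in the pooled list, in the replicated list and without replicate 2. The shares of all coding genes there were 52.7%, 51.3% and 53.5%. The receptor share minus the ligand share was 50.0 percentage points. It was 16.7 in the pooled list and in the replicated list, and ranged from 16.7 to 50.0 with either replicate left out. Ltb and Tnfsf13b became marked where it was 16.7. It was 66.7 with the 15000 peaks, where Tnfsf14 was no longer marked, and 33.3 with a window of 2500 bp, where Ltb was marked. The covered length of the locus was 3583 bp with no flank, a shorter stretch by construction. No paired analysis was possible because there is 1 group. With depth unknown, the absence of a weak peak in replicate 2 does not show that the mark was absent.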
